A study of Mus musculus with 4 samples.

Results

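The genes described here are the 4 mouse Fc gamma receptor genes (Fcgr1, Fcgr3, Fcgr4 and Fcgr2b), the neonatal Fc receptor gene Fcgrt, the shared signalling chain gene Fcer1g, the kinase genes Syk and Lyn, and Inpp5d. They were chosen by name, with earlier results of these data known, and all 9 were found among the 52476 gene names of the expression table. Expression was measured by RNA-seq in macrophages grown from mouse bone marrow for 7 days with 20 ng/mL M-CSF, a cytokine that turns marrow precursors into macrophages. The 4 groups were wild type (WT) at 0 h, WT at 24 h, OGT knockout at 0 h and OGT knockout at 24 h, with 1 library each. The time counts from the start of IL-4 at 20 ng/mL, the cytokine used for alternative (M2) polarisation. OGT places single O-GlcNAc sugars on nuclear and cytosolic proteins. All 4 libraries carry the same treatment tag, and the 0 h libraries were read as cells without IL-4. The sources used here do not give the way Ogt was deleted, the cells in which it was deleted, or the age, sex and strain of the mice. With 1 library per group there is no spread between cultures to set a difference against, so no p-value is given and every difference describes these libraries. IL-4 and time in culture cannot be told apart, since no 24 h culture without IL-4 is labelled.

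Fc gamma receptors bind the constant part of IgG, and macrophages use them to engulf antibody-coated particles and to clear immune complexes. The activating receptors pair with the common gamma chain (Fcer1g), whose tyrosine motif is phosphorylated by Src family kinases such as Lyn and then docks the kinase Syk. The inhibitory receptor Fcgr2b carries its own tyrosine motif, which recruits the lipid phosphatase SHIP, the product of Inpp5d. FcRn, encoded by Fcgrt, sits in endosomes with beta-2 microglobulin and returns IgG to the surface instead of letting it be degraded.

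The FPKM totals of the libraries ran from 338704 to 353093. FPKM is a fragment count scaled to transcript length and library size, so that levels of different genes can be compared. These totals thus do not measure library size. Ogt stood at 27.4 and 29.8 FPKM in WT and at 14.2 and 14.5 in the libraries labelled knockout. These thus kept 51.8% of the WT transcript level at 0 h and 48.5% at 24 h. Gene totals do not show whether a deleted part is missing from that transcript, so loss of OGT could not be checked here, and "knockout" below means the label. Of the 7 listed macrophage markers, Csf1r, Cd68 and Adgre1 lay between 361.1 and 1149.5 FPKM in every library. Adgre1 was at 1149.5 FPKM before and 361.1 after IL-4 in WT, and at 1027.2 and 378.2 in the knockout. Cd14 went from 197.5 to 15 FPKM in WT and from 224.2 to 25.9 in the knockout. Itgam went from 123.6 to 66.7 FPKM in WT and from 109.6 to 31.1 in the knockout. Mertk lay between 28.5 and 70.6 FPKM. Among markers of other cell types, the summed levels of the NK cell (0.738 to 1.81 FPKM), T cell (0 to 0.909) and dendritic cell lists (1.55 to 2.97) were low throughout, and Klrb1c, Prf1 and Mcpt4 were listed at 0 in all 4 libraries. In the B cell list Cd79b and Cd22 reached 13.7 and 9.29 FPKM. Neutrophil markers summed to 3237.1 FPKM before and 1032.6 after IL-4 in WT, and to 2088.8 and 688.7 in the knockout. Most of that sum came from S100a9, S100a8 and Ngp (1768.8, 720.5 and 595.5 FPKM in WT at 0 h). Ly6g did not pass 0.651 FPKM and Cxcr2 lay between 0.833 and 1.75. Csf3r was at 45.2 FPKM before and 45 after IL-4 in WT, and at 59.4 and 48.9 in the knockout. Monocyte markers summed to 58.5 and 31.6 FPKM in WT and to 39.7 and 21.2 in the knockout. Platelet markers summed to 100.3 and 48.8 FPKM in WT and to 47.4 and 28.7 in the knockout, with Pf4 the most abundant (82.6 FPKM at most). Mast cell and basophil markers summed to 6.47 and 4.36 FPKM in WT and to 1.18 and 0.687 in the knockout, and fibroblast markers to 12.5 and 6.23, and 7.35 and 4.58. Here and below, paired levels give 0 h first and 24 h second. Several of these cell types also carry Fc receptors, so these values stand beside all results that follow, and their part in them was not tested. In bulk RNA, fewer cells of a type and less RNA per cell cannot be told apart.

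The activating receptor genes Fcgr1 and Fcgr4 were much lower with IL-4, whereas Fcgr3 and the inhibitory Fcgr2b were not. Fcgr1 encodes the high-affinity IgG receptor (ENSMUSG00000015947, chromosome 3, 96282909 to 96293969, − strand, GRCm38). WT cells held 171.7 FPKM before and 35.7 FPKM after IL-4, and knockout cells 272.7 and 55.7. The level was lower at 24 h in each genotype, and at each time the knockout held the higher value. The difference between 24 h and 0 h, given throughout as the log2 ratio of FPKM + 1, was −2.24 in WT (4.71-fold lower) and −2.27 in the knockout (4.83-fold lower). Only 80 of 11687 genes kept in WT, and 85 of 11577 kept in the knockout, lay further down. Genes below 1 FPKM in every library of a comparison were left out of it, and the others are called kept.

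Fcgr4 encodes an activating receptor that is found in mice next to Fcgr3 and binds a subset of IgG classes (ENSMUSG00000059089, chromosome 1, 171018920 to 171029761, + strand). Its levels were 167.1 and 70.6 FPKM in WT, and 272.1 and 76.3 in the knockout. The knockout library at 0 h was the highest, and the 24 h libraries were close to each other. The log2 difference with IL-4 was −1.23 in WT (2.35-fold lower) and −1.82 in the knockout (3.53-fold lower). The knockout response minus the WT response was −0.59, with 366 of 12000 genes further down.

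Fcgr1 and Fcgr4 stood at nearly the same level without IL-4, at a ratio of 1.03 in WT (95% counting interval 0.992 to 1.06) and 1 in the knockout (0.974 to 1.03). After IL-4 Fcgr4 was the higher of the pair. Because these genes had the largest differences of the 9, the upstream sequences of their RefSeq start sites are shown, in lower case from 250 to 11 bases before the start (GRCm38.p6, read on the strand of the gene). Capitals mark matches to TTCNNNGAA, the palindrome of the interferon-activated site type, and to GAGGAA, the core of PU.1-type sites, which appears as its complement where it lies on the other strand.
Fcgr1, chr3:96293980-96294219, − strand: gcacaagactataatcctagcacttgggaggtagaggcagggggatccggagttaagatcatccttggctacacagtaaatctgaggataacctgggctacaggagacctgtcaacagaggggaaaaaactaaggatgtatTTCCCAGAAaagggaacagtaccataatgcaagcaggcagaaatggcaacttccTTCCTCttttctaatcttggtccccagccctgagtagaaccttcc
Fcgr4, chr1:171018676-171018915, + strand: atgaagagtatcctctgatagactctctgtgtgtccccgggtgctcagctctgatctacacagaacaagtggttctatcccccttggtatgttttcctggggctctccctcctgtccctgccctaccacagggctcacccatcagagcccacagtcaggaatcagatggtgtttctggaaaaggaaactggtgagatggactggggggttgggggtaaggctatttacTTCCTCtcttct
The Fcgr1 stretch held TTCCCAGAA from 109 to 101 bases before the start (chromosome 3, 96294070 to 96294078). The same match is read on both strands. Of the 10 promoter windows listed for 8 of the 9 genes, which run from 250 bases before to 50 after a start, this was the 1 match to TTCNNNGAA, and 8.3% of 32851 windows of that length hold one. The same palindrome with a spacer of 4 bases, as in STAT6-type sites, was found in the Inpp5d window alone among them (6.95% of all windows). GAGGAA was found on either strand in 6 of the 10 windows, against 28.3% of all windows. These belonged to Fcgr1, Fcgr3, Fcgr4, Inpp5d and Syk, and the 2 windows of Fcgr3 held the same site. A match is a run of letters and not a measured binding site.

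**Figure D1:**
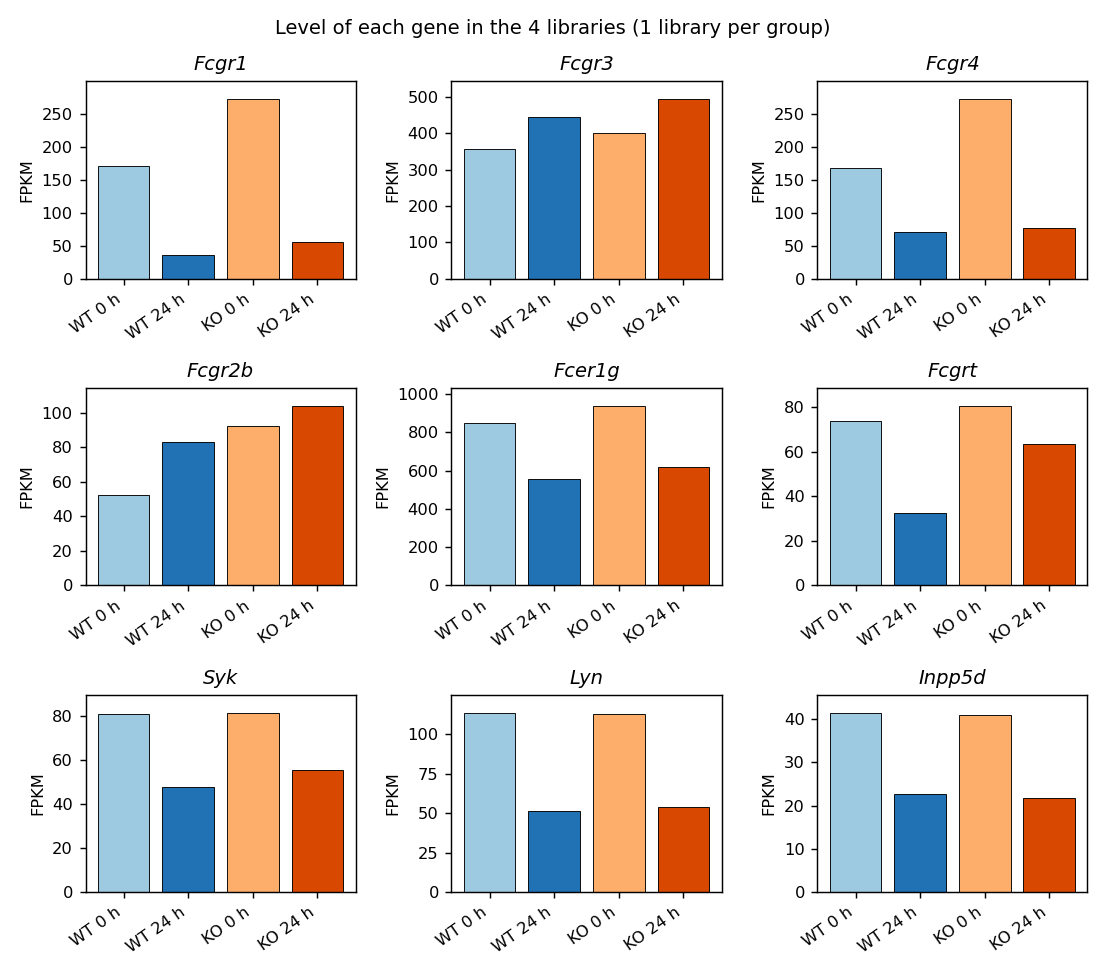
FPKM (vertical axis, from 0) of each of the 9 genes in the 4 libraries, 1 bar per library, with blue for WT and orange for the knockout (KO) and the darker shade for 24 h of IL-4. The WT bars of Fcgr1 stand at 171.7 and 35.7 FPKM, while Fcgr3 and Fcgr2b are the panels in which the 24 h bars are the taller ones within each genotype.

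Fcgr3, the low-affinity activating receptor, was the most abundant receptor transcript in every library (ENSMUSG00000059498, chromosome 1, 171051174 to 171064935, − strand). WT cells held 357.3 and 444.2 FPKM, and knockout cells 400.9 and 494.3. All values lay within 1.5-fold of each other. The IL-4 difference was 0.31 in WT and 0.30 in the knockout. Fcgr2b, the inhibitory receptor (ENSMUSG00000026656, chromosome 1, 170958617 to 170976547, − strand), stood at 52.3 and 82.8 FPKM in WT, and at 92.1 and 104 in the knockout. The WT library at 0 h was the low one. The IL-4 difference was 0.65 in WT and 0.17 in the knockout.

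Fcgr3 and Fcgr2b are neighbours with closely related coding sequences, which matters for how their reads are assigned. Over 784 aligned coding bases 78.1% were identical, and the best window of 300 bases reached 99%. The other pairs of receptor genes did not share more than 14 identical bases in a row, against 129 for this pair. That run covers coding bases 263 to 391 of Fcgr3 and 278 to 406 of Fcgr2b, counted from the first base of the start codon, and crosses an exon junction. It is shown because a read inside it cannot be given to either gene by its letters alone.
Fcgr3 and Fcgr2b, shared run: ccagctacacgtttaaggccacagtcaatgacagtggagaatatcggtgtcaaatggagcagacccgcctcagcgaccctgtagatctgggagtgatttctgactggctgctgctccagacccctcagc
Of 1733 different 75-base windows in Fcgr3 transcripts, 94 (5.42%) also occur in Fcgr2b, so most of either gene is distinct at that length. The sources used here do not give the read length or the treatment of multiply mapped reads, and the split between these genes is to that extent uncertain. Fcgr1, Fcgr4, Fcer1g, Fcgrt and Syk shared no 75-base window with transcripts of another gene. Lyn shared 14.4% of its windows, most of them with Gm11787, which was listed at 0 in all 4 libraries, and its exons overlap those of the noncoding gene Gm26857 (0.149 to 0.377 FPKM). Exons of Fcgr2b overlap the antisense gene Gm38204, which did not pass 0.0603 FPKM.

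The mix of receptor transcripts differed between the times. Fcgr1 made up 22.9% of the summed FPKM of the 4 receptors in WT at 0 h and 5.63% at 24 h, and 26.3% and 7.62% in the knockout. Fcgr4 went from 22.3% to 11.1% in WT and from 26.2% to 10.4% in the knockout. Fcgr3 took the larger share at 24 h, 70.1% against 47.7% in WT and 67.7% against 38.6% in the knockout. Fcgr2b held 6.99% and 13.1% in WT and 8.88% and 14.2% in the knockout.

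The summed activating receptors (Fcgr1, Fcgr3 and Fcgr4) were 13.3 times Fcgr2b in WT at 0 h (95% counting interval 12.9 to 13.8) and 6.65 times at 24 h (6.45 to 6.84). In the knockout the ratio was 10.3 at 0 h (9.99 to 10.5) and 6.02 at 24 h (5.86 to 6.19). The ratio was thus lower at 24 h in both genotypes and lower in the knockout at both times. These intervals cover counting error only. Without Fcgr3, whose reads may be shared with Fcgr2b, the ratio was 6.47 and 1.28 in WT and 5.91 and 1.27 in the knockout, so that the genotypes were nearly equal at 24 h. Fcgr1 alone against Fcgr2b gave 3.28 and 0.431 in WT and 2.96 and 0.535 in the knockout, so that at 24 h the knockout value was the higher one.

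**Figure D2:**
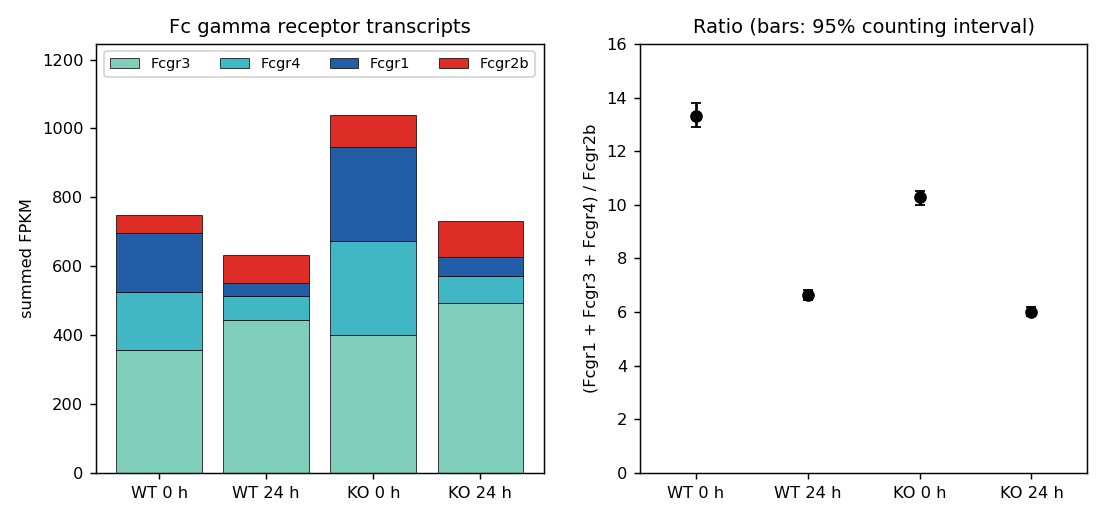
Left, stacked FPKM of the 4 receptor genes in each library; right, summed activating receptors divided by Fcgr2b, with bars for the 95% counting interval and both vertical axes from 0. The ratio is 13.3 and 10.3 at 0 h and 6.65 and 6.02 at 24 h.

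Fcer1g, the gamma chain that the activating receptors need for signalling and surface expression, was the most abundant of the 9 genes in every library (ENSMUSG00000058715, chromosome 1, 171229572 to 171234365, − strand). WT cells held 847.6 and 557.3 FPKM, and knockout cells 939.4 and 621.6. The level was lower at 24 h in each genotype. The IL-4 difference was −0.60 in WT and −0.59 in the knockout, and the knockout minus WT response was 0.01. Set against the summed activating receptors, Fcer1g stood at 1.22 and 1.01 in WT and at 0.993 in both knockout libraries, a ratio chosen after the values were seen.

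Fcgrt (ENSMUSG00000003420, chromosome 7, 45092990 to 45103851, − strand) was the member whose IL-4 difference varied most between genotypes. WT cells held 73.7 and 32.6 FPKM, and knockout cells 80.5 and 63.4. The WT library at 24 h stood apart from the other 3 on the low side. The IL-4 difference was −1.15 in WT and −0.34 in the knockout, and the difference between these responses was 0.81, with 248 of 12000 genes further up. Its partner B2m, the light chain shared with MHC class I, was within 1.2-fold in every comparison, at 3544.1 and 3082 FPKM in WT and 3663.4 and 3074.5 in the knockout. Fcgrt was thus 2.08% and 1.06% of B2m in WT, and 2.2% and 2.06% in the knockout.

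Among the signalling genes, Lyn, Syk and Inpp5d were lower with IL-4 and close between genotypes. Lyn, the Src family kinase (ENSMUSG00000042228, chromosome 4, 3678115 to 3813122, + strand), was at 113.6 and 51.6 FPKM in WT and at 112.5 and 53.7 in the knockout (differences −1.12 and −1.05). Syk, which carries the signal from the phosphorylated gamma chain (ENSMUSG00000021457, chromosome 13, 52583173 to 52648792, + strand), was at 80.8 and 47.8 FPKM in WT and at 81.5 and 55.3 in the knockout (−0.75 and −0.55). Both kinases were lower at 24 h in each genotype. Inpp5d, whose product SHIP acts downstream of Fcgr2b (ENSMUSG00000026288, chromosome 1, 87620312 to 87720507, + strand), was the lowest of the 9 in every library, at 41.5 and 22.8 FPKM in WT and at 41 and 21.8 in the knockout (−0.84 and −0.88). The gene of the inhibitory receptor and that of its phosphatase thus had differences of opposite sign.

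With 24 h of IL-4, 4 of the 9 genes were at least 2-fold lower in WT, where 6.26% of all kept genes were (Fcgr1, Fcgr4, Fcgrt and Lyn). In the knockout 3 of 9 were, against 5.99% of kept genes (Fcgr1, Fcgr4 and Lyn). No member was 2-fold higher in either genotype, against 4.76% and 5.16%. The 9 were chosen with earlier results of these data known, so these counts are a description. The median of the 9 was −0.84 in WT and −0.59 in the knockout, beside medians of 0.02 and 0.03 over all kept genes. Of the macrophage markers, 4 of 7 were 2-fold lower in WT and 5 of 7 in the knockout, among them Fcgr1 itself. Of the neutrophil markers, 5 of 7 kept were 2-fold lower in each genotype, and the part of either list in the members' values was not tested.

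**Figure D3:**
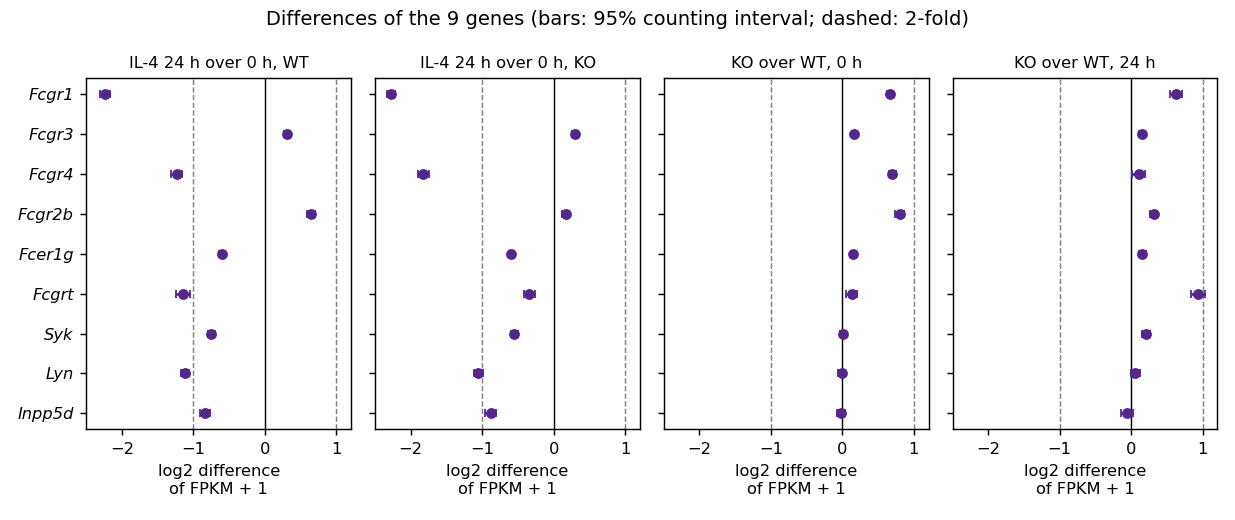
Log2 difference of FPKM + 1 (horizontal axis) for each of the 9 genes in the 4 comparisons of 2 libraries. Bars are the 95% counting interval and dashed lines mark 2-fold. In the IL-4 panels 7 genes lie left of 0, and in the genotype panels no gene passes 2-fold.

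Between genotypes no member reached 2-fold at 0 h, where 1.75% of 11479 kept genes did (0.880% higher and 0.871% lower in the knockout). None did at 24 h either, where 1.45% of 11302 did (0.832% higher and 0.619% lower). At 0 h the largest differences of the 9 were those of Fcgr2b, Fcgr4 and Fcgr1, all higher in the knockout. Fcgr2b was 1.75-fold higher (0.80), Fcgr4 1.63-fold (0.70) and Fcgr1 1.58-fold (0.66). Of the 11479 kept genes, 162, 222 and 252 had a higher difference than these. Fcgr3 (0.17), Fcer1g (0.15) and Fcgrt (0.13) differed little, and Syk (0.01), Lyn (−0.01) and Inpp5d (−0.02) lay within counting error of 0. The median of the 9 was 0.15, beside −0.05 over all kept genes. Neutrophil markers were lower in the knockout in 6 of 7 cases at that time, monocyte markers in 4 of 5 and platelet markers in 4 of 4. The mast cell and basophil gene Prss34 was at −1.72. The summed levels of these lists thus differed in the opposite direction from Fcgr1, Fcgr4 and Fcgr2b, and their part in the result was not tested.

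At 24 h Fcgrt had the largest genotype difference, at 1.91-fold higher in the knockout (0.94), and 113 of 11302 kept genes lay further up. That value rests on the low WT library at 24 h. Fcgr1 was 1.54-fold higher (0.63), close to its value at 0 h, and Fcgr2b 1.25-fold (0.32). Fcgr4 was at 0.11, where it had been at 0.70 without IL-4. Syk (0.21), Fcer1g (0.16), Fcgr3 (0.15), Lyn (0.06) and Inpp5d (−0.06) made up the rest, with a median of 0.16 beside −0.05 over all kept genes. The comparisons at 0 h and 24 h share no library, but each shares 1 library with each IL-4 comparison. The larger IL-4 difference of Fcgr4 in the knockout and its higher level there at 0 h rest on the same library. No member passed 2-fold in the difference between responses, where 2.42% of 12000 genes did.

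**Figure D4:**
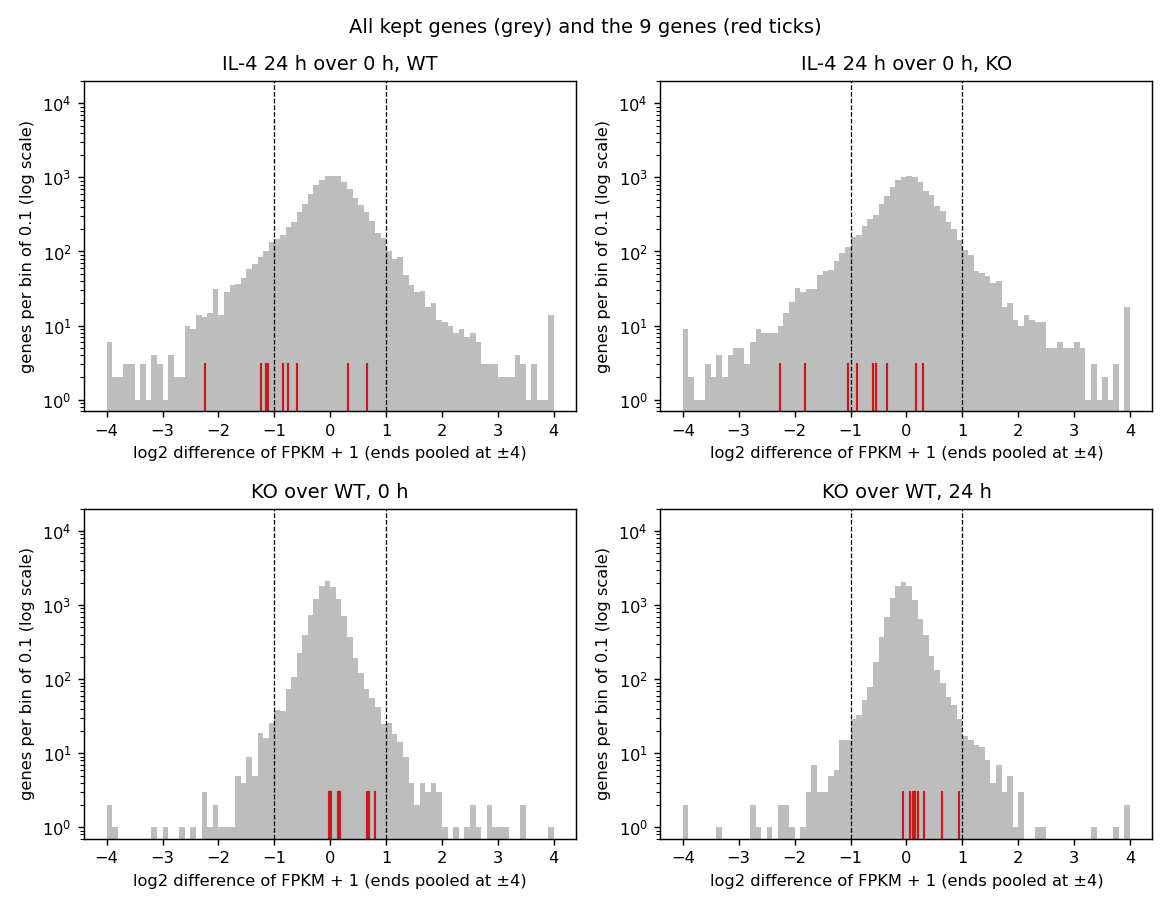
Number of kept genes (grey, log axis) by log2 difference of FPKM + 1 in bins of 0.1, for the 4 comparisons of 2 libraries, with the 9 genes as red ticks and dashed lines at 2-fold. Ticks lie mostly left of 0 in the IL-4 panels and mostly right of it in the genotype panels, where they stay within 2-fold.

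The order of the levels differed between 0 h and 24 h. In WT at 0 h the order was Fcer1g, Fcgr3, Fcgr1, Fcgr4, Lyn, Syk, Fcgrt, Fcgr2b and Inpp5d, and only Fcgr1 and Fcgr4 were within counting error of each other. In WT at 24 h Fcgr2b was at position 3 and Fcgr1 at position 7. The knockout at 0 h had the same first 5 genes as WT, with Fcgr2b above Syk and Fcgrt, which did not differ beyond counting error (ratio 1.01, 0.971 to 1.06). In the knockout at 24 h Fcgr2b was again at position 3. Fcgr1 and Syk there, and Syk and Lyn, did not differ beyond counting error (ratios 1.01 and 1.03). The lowest-ranked value of any member, Inpp5d in the knockout after IL-4, lay above 81.2% of the genes at 1 FPKM or more.

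Of the 9 genes, 4 spanned at least 1 on the log2 scale over the 4 libraries, and for these the 5 genes of nearest pattern were sought among 6662 protein-coding genes that reached 5 FPKM. Likeness was the Euclidean distance between log2 values centred on each gene's mean, over 4 points, and is a description. Nearest to Fcgr1 were Isg20 (0.174), Isg15 (0.285), Arl5c (0.297), Hacd4 (0.324) and Tlr9 (0.339). Nearest to Fcgr4 were Phf11a (0.128), Gpx3 (0.163), Cd300lf (0.171), Ifi204 (0.194) and Zbp1 (0.197). Of the other members Fcgr4 was the nearest to Fcgr1, at rank 104 among the 6662 genes searched and a distance of 0.814. The member nearest to Fcgr4 was Lyn, at rank 243 and a distance of 0.67. Nearest to Fcgrt were Vsir (0.141), Il10rb (0.142), Npy (0.177), Ap5s1 (0.214) and Apoe (0.247). Il10rb, for example, stood at 64.6 and 25.7 FPKM in WT and at 63.7 and 55.2 in the knockout. Its low WT value at 24 h follows from its choice by likeness to Fcgrt. Nearest to Lyn were Atp13a2 (0.047), Cyp4f16 (0.061), Zup1 (0.064), Stard9 (0.067) and Msrb1 (0.069).

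The counts in the pathway lists below stand beside those over all kept genes. With IL-4, 4.76% of these were 2-fold higher and 6.26% lower in WT, and 5.16% and 5.99% in the knockout. No list count was tested against these shares. Of 10 other listed kinases of the Src and Tec families 6 were kept, and 1 was 2-fold higher with IL-4 in each genotype. This was Fyn, a Src family kinase like Lyn, at 6.76 and 31.7 FPKM in WT and at 6.58 and 34.3 in the knockout (2.07 and 2.22). Its level was close between genotypes at each time, and its IL-4 differences had the opposite sign to those of Lyn. The other adaptor chains were nearer to constant, with a median of −0.21 in WT and −0.16 in the knockout over Tyrobp and Hcst.

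Of 26 adaptors and effectors below Syk, 25 were kept in each IL-4 comparison. In WT 1 was 2-fold higher and 2 lower (median −0.20), and in the knockout 2 were higher and 1 lower (−0.04). The PI3K adaptor gene Pik3ap1 was at 267.8 and 84.9 FPKM in WT and at 259.8 and 78.1 in the knockout (−1.65 and −1.72). The protein kinase C gene Prkcd was at 58.8 and 172.3 FPKM in WT and at 65.9 and 178.2 in the knockout (1.53 and 1.42). Pik3r5, a PI3K regulatory subunit gene, passed 2-fold in WT (−1.02, against −0.59 in the knockout), and Malt1, a signalling scaffold and protease gene, in the knockout (1.07, against 0.85).

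The inhibitory list also held differences in both directions. Of 17 genes 3 were 2-fold higher in each genotype, 4 were lower in WT and 3 in the knockout, with medians of −0.39 and −0.12. Dok2, an adaptor that restrains receptor signalling, was at 18 and 126.3 FPKM in WT and at 24.6 and 159.3 in the knockout (2.74 and 2.64). The related Dok3 was at 24.5 and 3.82 FPKM in WT and at 27.4 and 3 in the knockout (−2.41 and −2.83). These relatives thus had large differences of opposite sign in both genotypes. The ubiquitin ligase gene Cblb (1.97 and 1.40) and the phosphatase-like Ubash3b (1.30 and 1.45) were higher, and the inhibitory receptor genes Clec12a (−1.64 and −1.62) and Pirb (−1.39 and −1.25) were lower. Cd300a passed 2-fold in WT (−1.14) and was at −0.99 in the knockout.

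Genes of the effector steps were mostly within 2-fold. Of 27 phagocytic cup actin genes, 3 were 2-fold lower in WT and 2 in the knockout, and 1 was higher in the knockout alone (Limk1, 1.18, against 0.70 in WT). The actin regulator gene Coro1a was lower in both (−1.44 and −1.55), as was the GTPase gene Rac2 (−1.05 and −1.07). Rac1 was at 86.9 and 42.8 FPKM in WT and at 88.5 and 100 in the knockout, so that the WT library at 24 h was again the low one. Of 5 NADPH oxidase genes, 2 were lower in each genotype. Cybb, the catalytic subunit, was at 335.4 and 99.6 FPKM in WT and at 394.3 and 131.2 in the knockout (−1.74 and −1.58), and the cytosolic subunit gene Ncf1 at −1.42 and −1.13.

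**Figure D5:**
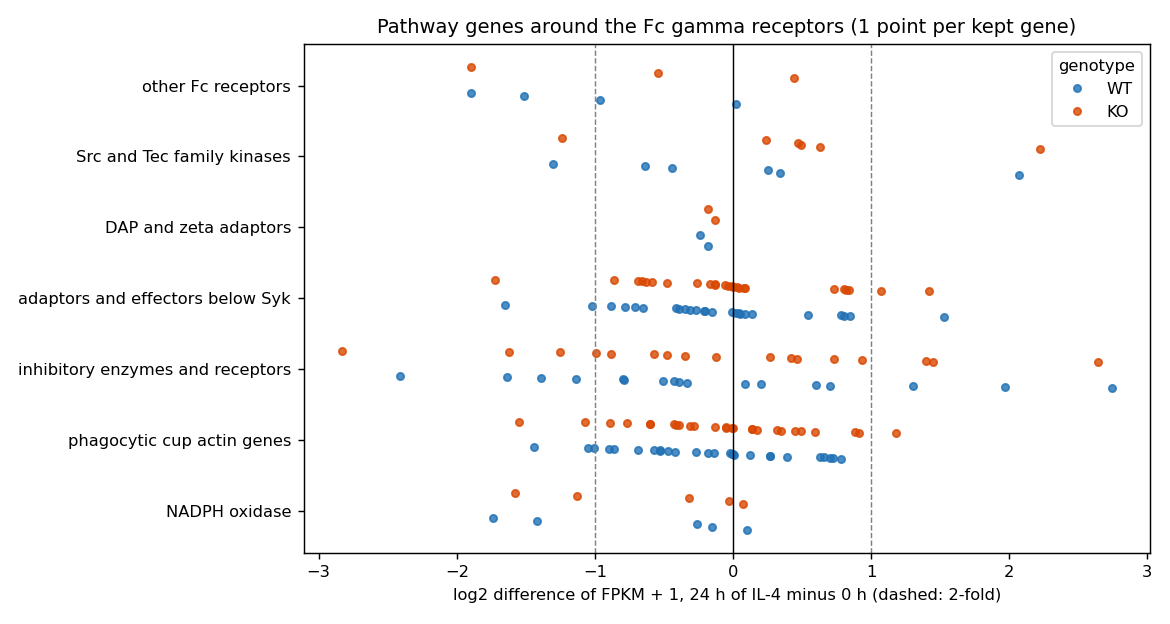
Log2 difference of FPKM + 1 between 24 h of IL-4 and 0 h (horizontal axis) for the kept genes of 7 pathway lists, 1 point per gene, with blue for WT and orange for the knockout. Dashed lines mark 2-fold, and most points of each list lie between them, except for the other Fc receptors in WT, where 2 of 4 do.

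Between genotypes no gene of the pathway lists passed 2-fold at 0 h, where 1.75% of all kept genes did. At 24 h Rac1 (1.21), Grb2 (1.00), an adaptor gene, and Inpp4a (1.13), a lipid phosphatase gene, were higher in the knockout. They were 1 of 27 phagocytic cup actin genes, 1 of 26 adaptors and effectors, and 1 of 17 inhibitory genes. Of all kept genes 0.832% were 2-fold higher at that time. No list gene was 2-fold lower, against 0.619%. Of 13 other Fc receptor genes, most were near 0 FPKM, and 4 were kept in the WT IL-4 comparison. Fcrl1 (−1.90) and the cytosolic antibody receptor gene Trim21 (−1.51) were 2-fold lower there, and Fcrl1 also in the knockout (−1.90). Fcrls was the abundant one, at 342.1 and 345.9 FPKM in WT and at 209.7 and 284.4 in the knockout, and is named after its values were seen. Its difference between genotypes at 0 h was −0.70, opposite in sign to those of Fcgr1, Fcgr4 and Fcgr2b.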

How the data were processed

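The authors' deposited values are FPKM per Ensembl gene for 4 libraries; STAR, StringTie and GRCm38 are named in the submitters' processing notes. The file header names no unit, and FPKM was read from the values, whose totals differ between libraries. The labels' protocols name a SMARTER mRNA-Seq kit and 1 µg of input RNA. The sources used here do not give strandedness, tool versions or the annotation release.

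Symbols were found for 52403 of 52550 genes (GENCODE M21), and genes sharing a symbol were summed. Differences are log2 ratios of FPKM + 1, a scale that understates low genes. A gene was kept at 1 FPKM in at least 1 library of the comparison, and 2-fold or more is counted as higher or lower. Depth is not stated. In genes with 1 exon of 1 to 6 kb, the most common product of FPKM and length was taken as 1 fragment, which gives 20.01 to 21.89 fragments per FPKM and kilobase. About 25.4% to 26.8% of such genes lay within 0.05 of a whole multiple, and 18.2% to 21.7% of those above 1 step, where that window covers 10% of the range. The step is thus a rough estimate, and so is every counting interval. With each gene's longest transcript as its length, the members rest on 1225 to 14128 fragments, and the 95% counting interval of a difference between 2 libraries is at most ±0.1. It covers counting error only.

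The members, the gene lists and the marker lists were chosen with earlier results of these data known. Genes named beside the members are list genes past 2-fold, up to 4 per list, comparison and direction, B2m, and the 5 nearest patterns of members that span at least 1 on the log2 scale. Promoter sequences are from RefSeq (GRCm38.p6), which listed 8 of the 9 genes, Lyn being the other. Transcripts are from GENCODE M21. The procedure was tested on simulated data with counting error only and set changes beyond 2-fold. Those data held no variation between cultures, so that test does not bear on the limit of 1 library per group. Alternatives were pseudocounts of 0.1 and 5, no filter, a filter at 5 FPKM, and 3 rescalings. Python 3.11.15, pandas 2.3.3 and numpy 2.4.6 were used. Some items are not reported here.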

Additional observations from a re-analysis of the deposited data

Results flagged for a closer look

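Some of the pathway genes past 2-fold in a comparison of 2 libraries had differences of opposite sign in the 2 genotypes or at the 2 times. With 1 library per group these contrasts were not tested. The IL-4 difference of Rac1 was −1.01 in WT and 0.17 in the knockout, 1.18 apart. That of Grb2 was −0.15 in WT and 0.84 in the knockout (0.99 apart), with the knockout library at 24 h at 101.6 FPKM and the others between 50.3 and 56.4. That of Inpp4a was −0.33 and 0.73 (1.06 apart), with levels from 2 to 5.58 FPKM. The genotype difference of Trim21 was −0.54 at 0 h and 0.44 at 24 h (0.98 apart), with levels from 3.91 to 13 FPKM. Src, which passed 2-fold in no such comparison and is named after its values were seen, had IL-4 differences of −0.64 in WT and 0.47 in the knockout (1.12 apart) and genotype differences of −0.82 at 0 h and 0.30 at 24 h, with levels from 1.25 to 2.96 FPKM. None of the 9 Fc receptor and signalling genes had opposite signs beyond counting error in this way.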

How the results depend on the processing

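No paired analysis was possible because each group has 1 library, and for the same reason no library could be left out. All member counts past 2-fold stayed as reported under every alternative. Over 315 recomputed member differences, none crossed 2-fold in either direction and the largest move was 0.12 on the log2 scale. Of these, 38 moved by more than their counting interval. The filter settings could not move a member's difference, since every member lay above 5 FPKM in all libraries. The sign changed in 3 cases, all of values within counting error of 0: the genotype differences of Lyn and Inpp5d at 0 h (0.04 for each with median ratio rescaling) and the difference between the responses of Fcer1g. The members' median with IL-4 in WT was −0.75 with a pseudocount of 5 and −0.92 as TPM (FPKM rescaled to 1 fixed total). In the knockout it was −0.66 with median ratio rescaling and −0.65 as TPM. With median ratio rescaling the genotype medians were 0.20 at 0 h and 0.21 at 24 h. Counts over all genes moved more. With a pseudocount of 0.1 they were 1971 (IL-4, WT), 2031 (IL-4, knockout), 438 (genotype, 0 h), 388 (genotype, 24 h) and 662 (difference of responses). With a pseudocount of 5 they were 557, 592, 43, 39 and 72, in the same order. With a filter at 5 FPKM the last 3 were 106, 93 and 141, since fewer genes were kept. As TPM those 3 were 356, 295 and 489. The pseudocount stayed at 1 there, while 1 FPKM made 2.832 to 2.952 TPM, so it weighed less than in the main setting. The ratio of activating receptors to Fcgr2b with Fcgr3 and Fcgr4 only was 10.0 and 6.21 in WT and 7.31 and 5.49 in the knockout. With Fcgr1 and Fcgr4 only it was 6.47 and 1.28 in WT and 5.91 and 1.27 in the knockout. It does not depend on scaling. With each of these sums it was lower at 24 h than at 0 h in both genotypes. Without Fcgr3 the genotypes did not separate at 24 h (1.28 and 1.27). Depth limits little here, since the members are abundant; the single library per group is the limit.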
